A study of Bos taurus with 6 samples.

Results

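TPSB1, CPA3 and KIT are 3 genes of mast cells that passed the authors' filter in a comparison of muscle from Angus with muscle from Luxi cattle. They were chosen by symbol from the authors' deposited table, where they are 3 of 232 entries, each symbol on a single entry. Muscle RNA was sequenced from 3 Angus beef cattle and 3 Chinese Luxi cattle, all 18 months old, with no treatment named. The labels give neither the muscle, the sex nor the relatedness of the animals, so breed cannot be told apart from other differences between these animals. The table holds a mean per breed and only genes that passed the authors' filter, with a false discovery rate (FDR) of at most 9.67e-04 and a log2 ratio of at least 1.00 in size. Because the members were chosen from genes that passed it, their difference between breeds is described here without a test. What is new in the values below is the level of each gene in each of the 6 libraries, worked back from the breed means.

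Mast cells are long-lived immune cells that settle in connective tissue, close to small vessels and nerves, and in skeletal muscle they lie mainly between the fibres. Their granules store proteases, histamine and heparin-like proteoglycans, which are released when the cell is activated, for example through IgE bound to its surface receptor. Their precursors come from bone marrow and depend on the receptor KIT for survival and maturation. Tryptase and carboxypeptidase A3 are granule proteases that are largely particular to mast cells, while KIT is also made by melanocytes, germ cells, blood progenitors and the interstitial cells of Cajal of the gut.

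TPSB1 (gene identifier 281545, named TPSB2 in the RefSeq gene table, with TPSB1 as a synonym) encodes tryptase beta, a trypsin-like serine protease that is active as a heparin-bound tetramer. Its mean level in the authors' deposited table was 3.31 RPKM for Angus against 0.329 RPKM for Luxi, a 10.05-fold ratio, with a deposited p of 1.04e-05 and FDR of 3.01e-04. RPKM scales the reads of a gene to its length and to the depth of the library. In bulk tissue, more mast cells and more of an RNA per mast cell cannot be told apart. From the deepest to the shallowest library of a breed, 51, 4 and 12 reads were recovered for Angus, and 4, 1 and 2 reads for Luxi. On the RPKM scale these were levels of 7.46, 0.602 and 1.86 in Angus and 0.555, 0.143 and 0.290 in Luxi. The deepest Angus library was high and the other 5 were at or below 1.86 RPKM. The breeds did not overlap, but the lowest Angus level and the highest Luxi level each rested on 4 reads, with exact 95% Poisson intervals of 0.164 to 1.54 and 0.151 to 1.42 RPKM, so at this depth those 2 libraries could not be told apart. The mean of the libraries was 3.31 ± 3.65 RPKM (SD, n = 3) in Angus and 0.329 ± 0.209 RPKM (SD, n = 3) in Luxi, and the difference between the means was smaller than the SD among Angus libraries. Tryptase genes form a family of close copies, and no source used here says how reads that match several of them were counted, so reads of other tryptases could be among these.

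CPA3 (gene identifier 528454) encodes carboxypeptidase A3, a zinc enzyme that trims residues from the C-terminal end of peptides and is stored in the same granules as tryptase. The authors' deposited table gives it a mean of 4.32 RPKM for Angus against 0.894 RPKM for Luxi, a 4.83-fold ratio with a deposited p of 1.27e-06 and FDR of 4.39e-05. Its Angus libraries held 77, 10 and 32 reads, or 8.25, 1.10 and 3.62 RPKM, from deepest to shallowest. Its Luxi libraries held 15, 4 and 7 reads, or 1.52, 0.417 and 0.741 RPKM. As for TPSB1, the deepest Angus library was highest and the middle library was lowest in both breeds. Unlike TPSB1 the breeds overlapped, since the middle Angus library lay below the deepest Luxi library. The mean was 4.32 ± 3.62 RPKM (SD, n = 3) in Angus and 0.894 ± 0.569 RPKM (SD, n = 3) in Luxi, a difference again smaller than the SD among Angus libraries.

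KIT (gene identifier 280832) encodes the receptor tyrosine kinase for stem cell factor, the growth factor that mast cells need to survive. Its mean in the authors' deposited table was 2.25 RPKM for Angus against 0.581 RPKM for Luxi, a 3.87-fold ratio with a deposited p of 1.29e-08 and FDR of 6.02e-07. It had the smallest ratio and the smallest p of the members, and the most reads, 197 in Angus and 53 in Luxi against 67 and 7 for TPSB1. Its listed length is 5144 bases against 1191 for TPSB1 and 1628 for CPA3. A pair of splits of its Angus reads remained possible: 153, 14 and 30 reads, or 154, 12 and 31, from deepest to shallowest. These are levels of 5.19 to 5.22, 0.418 to 0.488 and 1.07 to 1.11 RPKM. Its Luxi libraries held 14, 27 and 12 reads, or 0.450, 0.891 and 0.402 RPKM. The middle Luxi library was thus the highest of its breed for KIT, where it was the lowest for both proteases, and it lay above the middle Angus library, so the breeds overlapped. The mean was 2.25 RPKM with an SD of 2.56 to 2.60 (n = 3) in Angus and 0.581 ± 0.269 RPKM (SD, n = 3) in Luxi. This difference too was smaller than the SD among Angus libraries. No source used here names the test behind the deposited p-values, so they are not read as a measure of the spread between samples.

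**Figure D1:**
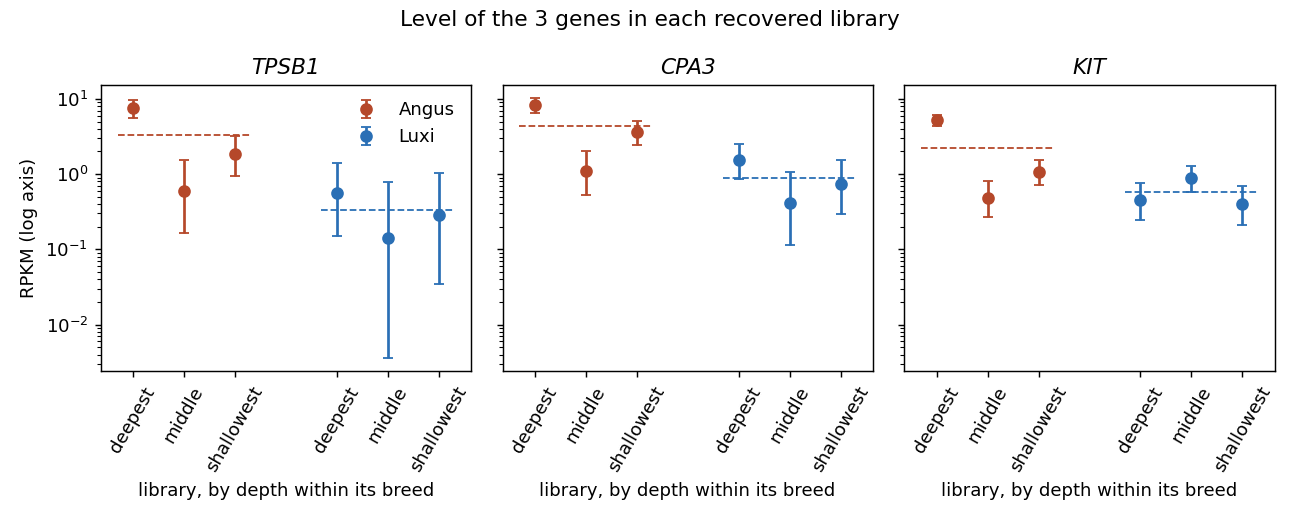
RPKM (log axis) of TPSB1, CPA3 and KIT in each recovered library, grouped by breed and ordered by depth within it; points are levels, bars exact 95% Poisson intervals from the reads (counting error only) and dashed lines breed means, with the first of the 2 possible splits drawn for KIT. The deepest Angus library is the highest for each gene, at 7.46, 8.25 and 5.19 RPKM, and the middle Luxi library is lowest of its breed for the proteases and highest for KIT.

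All 3 members were higher in Angus, as were 147 of the 232 listed genes (63.4%), and because the members were listed on this contrast nothing is read from that count. Among the 122 genes higher in Angus and above 0 in both breeds, whose median ratio was 2.67-fold, the ratios of TPSB1, CPA3 and KIT ranked 10, 22 and 28. Their levels were low for the list. The median level in Angus was 12.8 RPKM over the 147 genes higher there, and CPA3, TPSB1 and KIT ranked 116, 126 and 139 by level.

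The excess in Angus came largely from 1 library. The deepest Angus library held 76.1% of the Angus reads of TPSB1 (exact Clopper-Pearson 95% interval 64.1% to 85.7%), 64.7% of those of CPA3 (55.4% to 73.2%) and 77.7% to 78.2% of those of KIT (71.2% to 83.7% over both splits), against 34.3% of the depth of its breed. Its level was 6.07 times the mean of the other Angus libraries for TPSB1, 3.49 times for CPA3 and 6.64 to 6.83 times for KIT. Of the 121 genes higher in Angus for which the recovered reads decide it, 29 (24.0%) had more than 50% of their Angus reads in the deepest library. TPSB1, CPA3 and KIT are among them. The rest of the 147 genes higher in Angus have ranges that span 50%, so the share over all 147 is not known. The deepest Angus library had the highest Angus level in 38 of 72 genes for which this is decided (52.8%). The order seen in all 3 members, deepest, then shallowest, then middle, was that of 12 of 61 genes (19.7%). These counts describe the list, and no test compares the members with it.

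**Figure D2:**
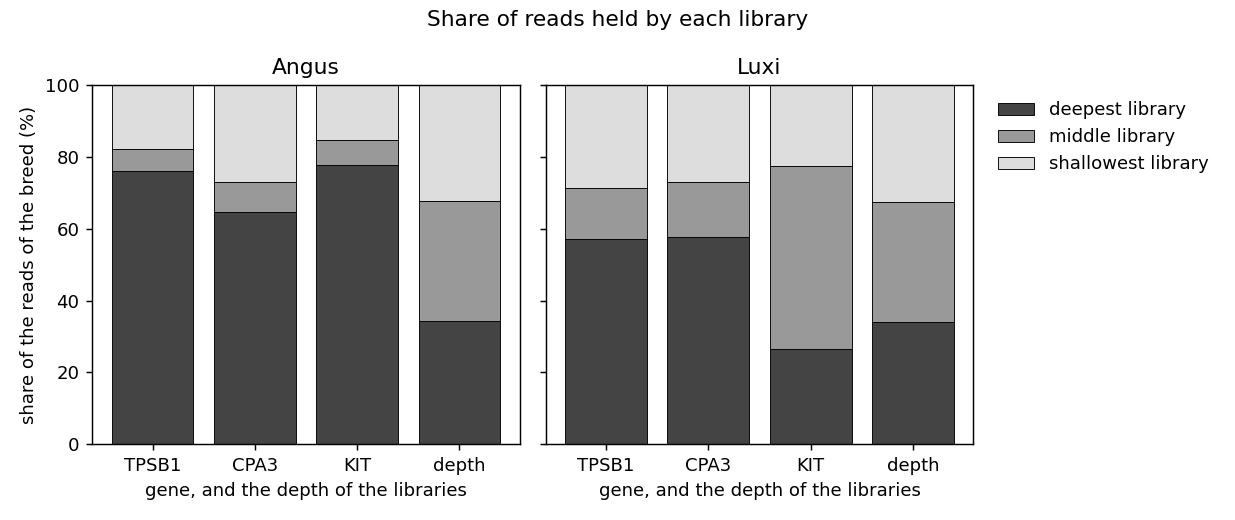
Share of the reads of a breed (%) held by its deepest, middle and shallowest library for TPSB1, CPA3 and KIT (first split), beside the share of sequencing depth. In Angus the deepest library takes 64.7% to 77.7% of the reads against 34.3% of the depth; in Luxi it takes 57.1% and 57.7% for the proteases, while the middle library takes 50.9% for KIT.

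Without the deepest Angus library the members remained higher in Angus on average, by unequal amounts. The ratio was 3.73-fold for TPSB1 (log2 1.90 against 3.33 with all libraries), 2.64-fold for CPA3 (1.40 against 2.27) and 1.31-fold to 1.34-fold for KIT (0.39 to 0.43 against 1.95). For KIT, the mean of the remaining Angus libraries, 0.764 to 0.781 RPKM, lay within 1 SD of the Luxi mean. For TPSB1 the remaining Angus mean was 1.23 RPKM and both remaining libraries still exceeded all Luxi libraries. For CPA3 it was 2.36 RPKM, but the middle Angus library, at 1.10 RPKM, still lay below the deepest Luxi library. Leaving out another library instead kept each log2 ratio between 2.97 and 3.94 for TPSB1, 1.93 and 2.90 for CPA3, and 1.75 and 2.45 for KIT. Among these, leaving out the deepest Luxi library raised the ratio of TPSB1 to 15.3-fold and that of CPA3 to 7.46-fold. Of the genes higher in Angus for which it is decided, 41 of 80 (51.2%) had all Angus libraries above all Luxi libraries, TPSB1 among them and CPA3 and KIT not. The 80 include genes listed at 0 in Luxi, which are so separated whenever every Angus library holds a read. The share without those genes is not given. Without the middle Angus library all 3 members were so separated, and without the deepest Luxi library TPSB1 and CPA3 were. Without the middle Luxi library KIT was not decided, since its middle Angus level, 0.488 or 0.418 RPKM by the split, lies above or below the deepest Luxi level of 0.450 RPKM. Leaving out a library can only keep or ease such a separation. The share of listed genes so separated with a library left out is not given, so nothing about the members is read from these counts.

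**Figure D3:**
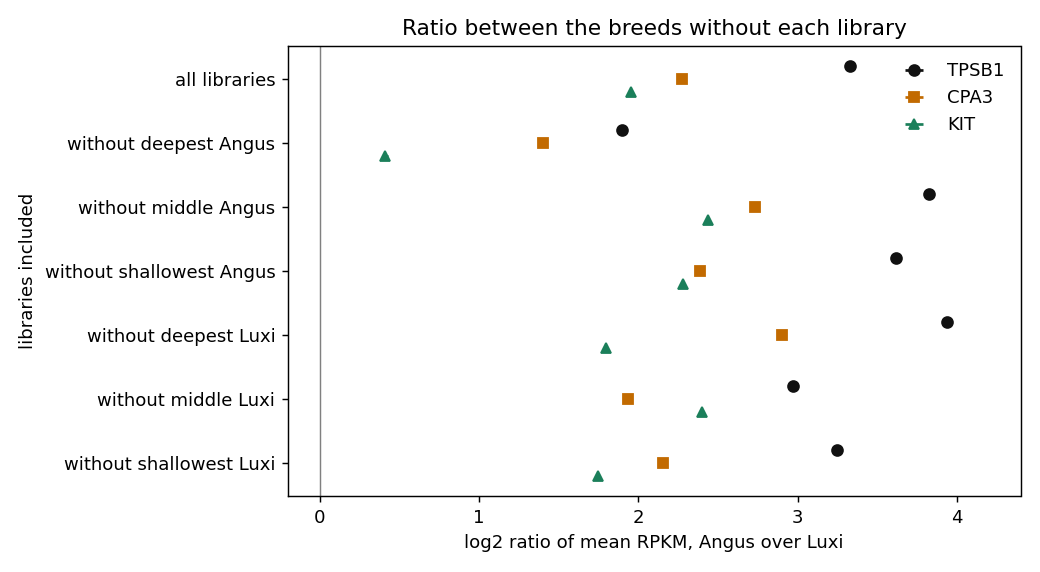
Log2 ratio of mean RPKM, Angus over Luxi, for the 3 genes with all libraries and without each library in turn (for KIT the middle of the range over both splits). All points lie above 0; without the deepest Angus library the ratios fall to 1.90, 1.40 and 0.39 to 0.43.

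In point values, the proportion between both proteases varied less from library to library than that of CPA3 to KIT. From deepest to shallowest library, the RPKM of TPSB1 relative to CPA3 was 0.905, 0.547 and 0.513 for Angus, and 0.365, 0.342 and 0.391 for Luxi. These ratios were higher in all Angus libraries than in all Luxi libraries, but their exact 95% intervals overlapped in every pair. For example, the interval was 0.623 to 1.31 in the deepest Angus and 0.0881 to 1.14 in the deepest Luxi library. Overlap of separate intervals is not a test, and whether the ratios differ between breeds was not tested. In the middle Luxi library, with 1 read of TPSB1, the interval was 0.00694 to 3.45, so how little the Luxi ratios vary is not known. The RPKM of CPA3 relative to KIT ranged wider, at 1.58 to 1.59, 2.26 to 2.63 and 3.26 to 3.37 in Angus and 3.39, 0.468 and 1.84 in Luxi. That of TPSB1 relative to KIT ranged from 0.160 in the middle Luxi library to between 1.67 and 1.73 in the shallowest Angus library. In the middle Luxi library KIT exceeded CPA3, with a ratio of 0.468 (exact 95% interval 0.119 to 1.34), and in the deepest Luxi library CPA3 exceeded KIT, with 3.39 (1.52 to 7.57). Those intervals do not overlap, but they cover counting error only. They belong to the lowest and the highest ratio of CPA3 to KIT, picked after the values were seen, and no test compares them.

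Likeness to TPSB1 was measured as Pearson r of log2(RPKM + 1) over the 6 libraries, for the 56 other genes whose reads have a single solution in every library. Libraries are shared by all genes, and 41 of the 56 were listed as higher in Angus, as TPSB1 was, and had a median r of 0.67, so r is given as a description with no test. CPA3 ranked 2 of 56 with r = 0.98 (Spearman rho 0.94). Without the deepest Angus library it ranked 1, with r = 0.98. KIT, which has 2 splits and so no rank of its own, had r = 0.93, below 7 of the 56 genes. Without the deepest Angus library its r fell to 0.50, below 30 of the 56. Without the 2 libraries farthest from the median of TPSB1, the deepest and the shallowest Angus, r was 0.93 for CPA3 and -0.76 to -0.69 for KIT. The 4 libraries left hold 4, 4, 1 and 2 reads of TPSB1, whose counting intervals overlap, so those last values do not tell CPA3 and KIT apart.

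The 5 genes most like TPSB1 were, beside CPA3, LOC100141470 (r = 0.98), FBP1 (0.97), an expressed sequence tag cluster with a deposited protein match to a B-cell scaffold protein (0.95) and IL17RB (0.95). LOC100141470 is annotated as similar to an immunoglobulin kappa chain, an antibody light chain of B and plasma cells, and its Angus libraries held 61, 1 and 5 reads against a listing at 0 in Luxi. FBP1, an enzyme of gluconeogenesis, held 67, 1 and 4 Angus reads and was also listed at 0 in Luxi. The tag cluster held 55, 6 and 11 Angus reads and 2, 2 and 7 Luxi reads. IL17RB, a receptor for interleukin 25, held 101, 3 and 7 Angus reads and 1, 2 and 4 Luxi reads. All 4 had a larger share of their Angus reads in the deepest library than TPSB1, at 76.4% to 93.1%. Without the deepest Angus library r was 0.95 for both LOC100141470 and FBP1, which ranked 2 and 3 behind CPA3, 0.73 for the tag cluster and 0.76 for IL17RB. LOC100141470 and FBP1 also had a Spearman rho of 0.94, as CPA3 had, so by these measures a close likeness to TPSB1 was not particular to CPA3. Both are tied at 0 in Luxi, so their values cannot show whether they follow TPSB1 among the Luxi libraries. Without the deepest and shallowest Angus libraries r was 0.61 for both, against 0.93 for CPA3. That 0.61 is fixed for any gene above 0 in the middle Angus library alone.

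**Figure D4:**
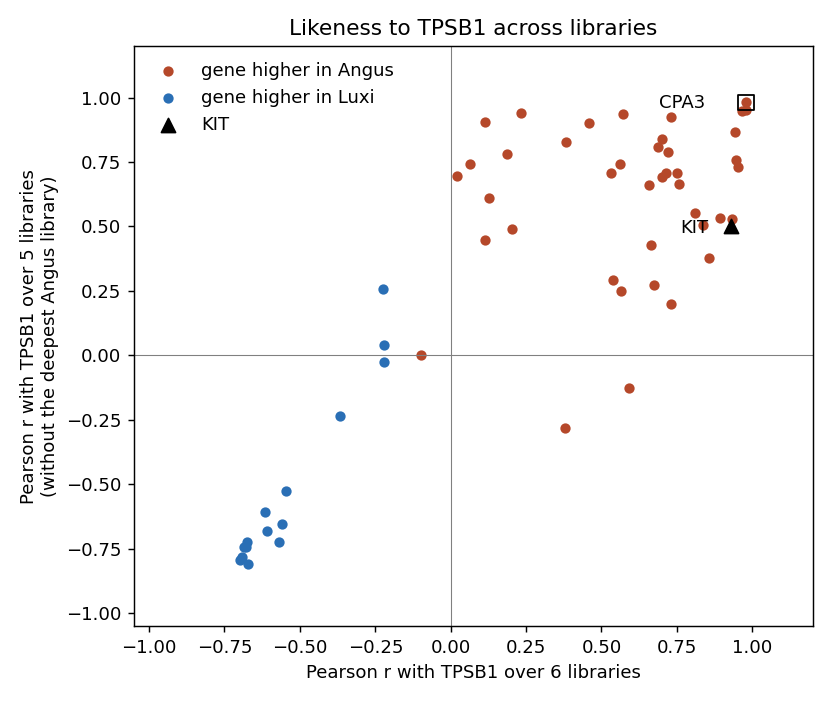
Pearson r of each gene with TPSB1 on log2(RPKM + 1), over 6 libraries (x axis) and over the 5 libraries left without the deepest Angus library (y axis), for 56 genes with a single solution and for KIT (first split). CPA3 lies at 0.98 on both axes, and KIT falls from 0.93 to 0.50.

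Other mast cell genes did not appear on the list. Of 50 gene symbols on a mast cell list, the deposited table holds TPSB1, CPA3 and KIT alone, and older gene symbols added none. The list spans granule proteases, the histamine enzyme HDC, the IgE receptor chains FCER1A and MS4A2, the KIT ligand KITLG and the transcription factors GATA2 and MITF. The other 47 symbols include TPSB2, the RefSeq name of the gene listed as TPSB1, so TPSB2 is not a further gene. The levels of the rest were not analysed here. From deepest to shallowest library, the summed level of the 3 members was 20.9, 2.12 to 2.19 and 6.55 to 6.59 RPKM for Angus, and 2.53, 1.45 and 1.43 RPKM for Luxi, so on the sum the middle Angus library lay below the deepest Luxi library.

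Some markers of other cells were also highest in the deepest Angus library. So were 38 of the 72 decided genes higher in Angus (52.8%), so nothing about cell types is read from this. Of 11 T and NK cell markers the table holds SKAP1, an adaptor of T cell signalling, at 5.66, 2.30 and 0.996 RPKM in Angus and 0.447, 0.344 and 0.583 RPKM in Luxi. Of 5 adipocyte markers it holds ADIPOQ and CIDEC, which summed to between 36.0 and 43.6 RPKM in the deepest Angus library, at most 19.7 RPKM in the other Angus libraries and at most 9.07 RPKM in any Luxi library. CIDEC was listed at 0 in Luxi. L1CAM, an adhesion molecule of nerves and Schwann cells, lay at 3.68 to 3.72, 1.84 to 1.91 and 1.93 to 1.97 RPKM in Angus and 0.509, 0.418 and 0.531 RPKM in Luxi. NCAM1, another neural adhesion molecule, lay at 2.62 to 7.01 RPKM in the deepest Angus library and 1.78 to 10.9 RPKM in the others of its breed, so its highest library was not determined. Of 9 fibroblast and tendon markers it holds COMP and PRG4, both higher in Luxi, at a sum of 0.222, 0.381 and 0.470 RPKM in Angus and 8.63, 0.354 and 1.14 RPKM in Luxi. The lists for basophils and eosinophils, B and plasma cells, macrophages and dendritic cells, endothelium, and the other cells that make KIT, melanocytes and interstitial cells of Cajal, had 0 genes in the table. The same was true of 8 skeletal muscle markers, so the tissue label could not be checked on them. The B and plasma cell list holds 6 symbols and leaves out LOC100141470, the listed entry annotated as similar to an immunoglobulin kappa chain. Its count of 0 therefore does not mean that no listed entry bears such an annotation. The part of these other cells in the values of TPSB1, CPA3 and KIT was not tested.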

How the data were processed

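Total RNA of muscle from 6 animals was extracted with Trizol and sequenced on an Illumina instrument, per the labels' protocols; no source used here names the aligner, gene set, genome build, strandedness or statistical test. The authors deposited, for each of 232 listed genes, a mean read count and a mean RPKM per breed, a log2 ratio of Luxi over Angus, which is that of the RPKM values, and a p-value and FDR, per the file headers. Where the count is 0, the authors deposited an RPKM of 0.001. Breed means are printed as deposited, and ratios here are Angus over Luxi.

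Reads per library were worked back. A mean count times 3 is a whole sum of reads, while a mean RPKM, which the authors printed to 6 digits, adds the same reads with a weight set by the depth of their library. A search over depths, from 100000 reads beyond the range the genes allow, left 1 set in each breed that solved all 210 Angus and 207 Luxi genes with reads. Many genes allow several splits, and a single solution was found for 82 of the 210 in Angus and 56 of the 207 in Luxi. Depths were 5429317 to 5736365 reads in Angus and 5799075 to 6047227 in Luxi, each within 4 reads, and 57 genes had a single solution in all libraries. Ranges cover all solutions. On 6 simulated tables, 5 gave 1 set of depths, within 5 reads of the true ones, and 272 of their 272 single solutions were the true reads. The other table gave several sets and was left unsolved. The simulated tables were built with the formula assumed here, so they cannot test whether the deposited RPKM was made that way. The libraries cannot be matched to animals and are named by depth. Nothing says how samples of a breed were taken beyond separate labels, so SDs measure the spread between these samples.

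Poisson and Clopper-Pearson intervals are exact at 95% and cover counting error only, not the spread between samples. They take each read as separate, although PCR copies were not told apart by molecular identifiers. Ratios of reads have the interval of the matching binomial share. The named genes are the members, list genes in the table, and the 5 genes with highest r with TPSB1. Members, lists and rules were chosen with earlier results of these data known. Of 163 gene identifiers 148, those of all 3 members included, matched the RefSeq gene table of assembly ARS-UCD2.0, used for names alone. Promoter and protein sequences and genome positions were not used here. The count and sum of the nerve and Schwann cell marker list are not reported here. Alternatives were another source column, medians, pseudocounts, each library left out, other likeness measures and a doubled rounding tolerance. Python 3.11.15, numpy 2.4.6, scipy 1.17.1 and pandas 2.3.3 were used.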

Additional observations from a re-analysis of the deposited data

How the results depend on the processing

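TPSB1, CPA3 and KIT stayed higher in Angus under every alternative run. Their choice from genes filtered on this contrast favours that outcome. With each library left out in turn, the log2 ratio of Angus over Luxi ranged from 1.90 to 3.94 for TPSB1, 1.40 to 2.90 for CPA3 and 0.39 to 2.45 for KIT, lowest without the deepest Angus library each time. Medians over libraries gave 2.68, 2.29 and 1.26 to 1.30, and 1 RPKM added to both means gave 1.70, 1.49 and 1.04. The number of members with all Angus above all Luxi libraries was 1 on the RPKM scale and 0 in reads not scaled to depth. In those reads TPSB1 had 4 in both the middle Angus and the deepest Luxi library. With a library left out the number was 1 to 3, KIT being undecided without the middle Luxi library. No share over the listed genes is given for these settings. With the rounding tolerance and the depth intervals doubled, an alternative chosen after seeing the data, the reads of TPSB1 and CPA3 did not change, those of KIT in Angus ranged over 152 to 155, 10 to 16 and 29 to 32, and its log2 ratio without the deepest Angus library was 0.36 to 0.46. Of the 5 genes most like TPSB1, 3 remained by Spearman rho, 4 with a pseudocount of 0.1 and 2 among genes with at least 10 reads in each breed, a filter that removes genes listed at 0 in Luxi. The planned search of promoters for motifs was not run. No paired analysis was possible because the deposited columns are breed means and the recovered libraries carry no animal number. Depth limits TPSB1 most, with 7 Luxi reads in all.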

Other observations

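Among other listed entries with peptidase annotations, picked after their values were seen, CPXM2 and CPXM1, secreted relatives of the carboxypeptidases, had ratios of 3.69-fold and 2.12-fold in favour of Angus, from the authors' deposited table. The Angus libraries of CPXM2 held 109 to 110, 45 to 47 and 18 to 19 reads and its Luxi libraries 12, 13 and 24, from deepest to shallowest, so the deepest Angus library was again the highest, but the shallowest rather than the middle library was the lowest of its breed. The term for endopeptidase activity, deposited for TPSB1, stands on 3 listed entries, of which TPSB1 was higher in Angus and the other 2 were higher in Luxi. The term for protein metabolic process, which the authors deposited for TPSB1 and CPA3, stands on 4 listed entries, of which 3 were higher in Angus and 1, HABP2, a hyaluronan-binding protease, was higher in Luxi.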
